A study of Mus musculus with 11 samples.

Results

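Ephrins and their Eph receptors were followed at the RNA and open-chromatin level in sorted mouse epidermal keratinocytes, with and without a skin wound and with and without the transcription factor GRHL3. The 10 genes were taken by name: the receptors *Epha1*, *Epha2*, *Epha4*, *Ephb2*, *Ephb3* and *Ephb4*, and the ligands *Efna1*, *Efna3*, *Efnb1* and *Efnb2*. They are 10 of the 24421 genes listed in the count tables, and all 10 passed the filter on low counts that left 14045 genes for testing. The name fitted the data in that each of the 10 had at least 191 counts in every library. The other 12 genes of the family, 8 receptors and 4 ephrins, were read alongside.

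RNA was sequenced from 7 libraries and open chromatin by ATAC-seq was listed as peaks for 4 conditions, 1 list each. The groups were WT unwounded (2 RNA libraries), WT wounded (2), *Grhl3* cKO unwounded (1) and *Grhl3* cKO wounded (2). All were C57BL/6 by the labels and C57BL/6J by the study's methods. The cKO mice carried *Krt14-Cre* and floxed *Grhl3* alleles, so deletion followed the activity of the human KRT14 promoter, which drives Cre in basal keratinocytes and their descendants; WT animals were littermates, which the study's methods name *Krt14-Cre-WT* and the labels WT. Animals were 8 weeks old and of both sexes. Wounded keratinocytes came from the 1 mm margin of full-thickness back wounds at day 3, and unwounded keratinocytes from skin away from the wound. Cells were sorted as CD49F-positive after removal of cells with lineage markers of blood and vessels.

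Ephrins are ligands that stay attached to the cell surface, so they meet their receptors where cells touch. The A-class ligands are held by a lipid anchor and the B-class ligands span the membrane; binding sets off forward signalling through the tyrosine kinase domain of the Eph receptor and reverse signalling through the ligand. In epithelia the pair is known for setting tissue boundaries, for repulsion or adhesion between neighbouring cells and, in epidermis, for roles in differentiation and in loosening of cell contacts at wound edges.

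Total counts on genes ranged from 13497283 in the cKO unwounded library to 16807451 in WT unwounded replicate 2, so 3 counts, the limit used for a gene at 0, stood for 0.1785 to 0.222 CPM (counts scaled to the library total). Such limits cover counting error only. Replicates differed by more than counting error: chi-square divided by its degrees of freedom was 28.3 for the WT unwounded pair, 38.9 for WT wounded and 33.8 for cKO wounded, and the common biological coefficient of variation was 31.6%. The summed level of 6 basal keratinocyte markers, of which *Krt14* was the most abundant, was between 30890 and 44750 CPM in all 7 libraries, so the labelled cell type had its defining markers throughout. *Grhl3* itself was at 122 and 83.2 CPM in WT unwounded, 109.9 and 90.0 in WT wounded, 76.2 in cKO unwounded and 116 and 104 in cKO wounded. Those *Grhl3* ranges overlapped between genotypes; counts were given per gene, so reads from the deleted exons could not be told from the others.

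The cKO unwounded library stood apart from the rest in its sex-linked genes, and in the marker sums given below. It held 14854 *Xist* counts and 0 counts on 4 Y-linked genes, whereas the other 6 libraries held 3 to 32 *Xist* counts and 2580 to 3589 Y-linked counts. Sex and the unwounded state therefore cannot be told apart in the wound response of ephrins and receptors in cKO, nor can sex and genotype be told apart in its difference from the WT response.

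Levels were compared between family members as CPM per kilobase of exon, averaged over the 7 libraries (± SD, n = 7). *Epha2*, a receptor of A-class ephrins, was the most abundant at 128.6 ± 24.6, followed by the ligand *Efnb2* at 90.2 ± 20.5 and the ligand *Efna1* at 65.6 ± 9.51. *Epha4* (36.3 ± 5.84), *Efnb1* (34.05 ± 4.91), *Epha1* (24.2 ± 4.11) and *Ephb4* (23.2 ± 1.84) formed the middle, and *Efna3* (7.67 ± 1.86), *Ephb3* (7.49 ± 0.794) and *Ephb2* (1.92 ± 0.380) the lower end on the same scale. Neighbours in this order overlapped in range at most steps: *Epha2* was above *Efnb2* in 6 of 7 libraries, *Efnb2* above *Efna1* in 6, *Epha4* above *Efnb1* in 5, *Epha1* above *Ephb4* in 4 and *Efna3* above *Ephb3* in 3. The steps from *Efna1* down to *Epha4*, from *Ephb4* down to *Efna3* and from *Ephb3* down to *Ephb2* did not overlap in any library.

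Of the 12 other family members, *Ephb6*, a receptor whose kinase domain is inactive, was at 46.3 ± 8.44 CPM per kilobase and *Efna5* at 16.3 ± 1.66, within the range of the 10. *Efna4* followed at 4.21 ± 1.05 and *Efna2* at 2.09 ± 0.803. *Ephb1* was at 0.394 ± 0.510, *Efnb3* had at most 12 counts and *Epha7* at most 10 counts in a library, and *Epha3*, *Epha5*, *Epha6*, *Epha8* and *Epha10* had 0 counts in every library. Among the 10 genes, *Epha2* made up 50.8 to 66.0% of the receptors' summed CPM per kilobase and *Efnb2* 40.3 to 52.6% of the ephrins'. The summed receptor level divided by the summed ephrin level was 1.12 and 0.997 in WT unwounded, 1.43 and 1.19 in WT wounded, 0.810 in cKO unwounded, and 1.51 and 0.984 in cKO wounded. This ratio was higher in both WT wounded libraries than in both WT unwounded ones, and the wounded and unwounded libraries overlapped once the cKO was included.

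*Efnb2*, on chr8:8617434-8661242 of the minus strand, encodes the transmembrane ligand ephrin-B2. It was at 444 and 484 CPM in WT unwounded and 368 and 366 CPM in WT wounded. In cKO keratinocytes it was at 626 CPM in the unwounded library and 346 and 389 CPM in the wounded ones. All 4 wounded libraries lay below all 3 unwounded libraries, and the cKO unwounded library was the highest of the 7.

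**Figure D1:**
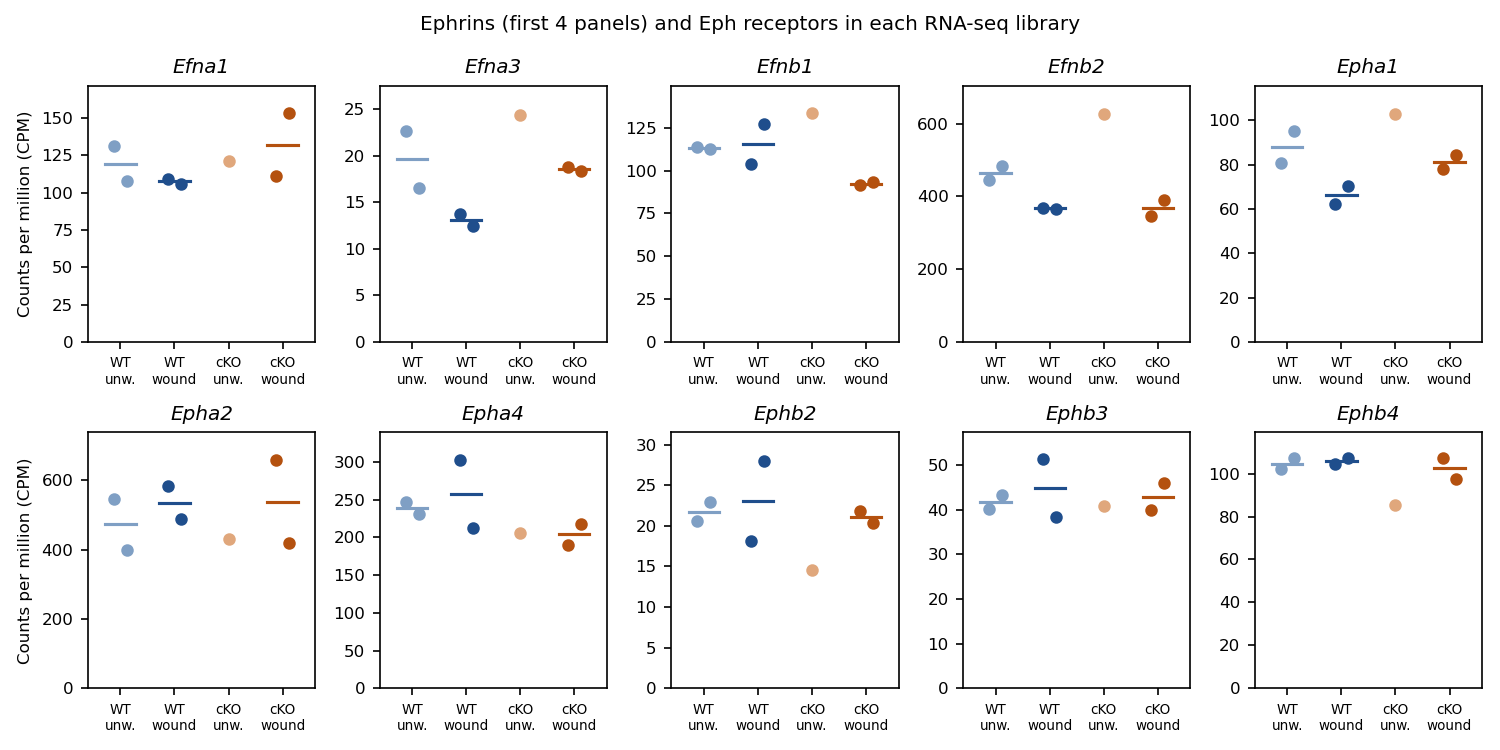
Level of each of the 4 ephrins and 6 Eph receptors in each RNA-seq library, in CPM (vertical axes start at 0). Points are libraries, bars are means of groups with 2 libraries, blue is WT and orange is *Grhl3* cKO; *Efnb2* lies at 346 to 389 CPM in the 4 wounded libraries and at 444 to 626 CPM in the 3 unwounded ones.

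The WT means of *Efnb2* were 464 ± 28.4 CPM unwounded and 367 ± 1.52 wounded (SD, n = 2 each), and the fitted log2 fold change was −0.31 (SE 0.15), with an unadjusted P of 0.0523 and adjusted p = 0.984 in edgeR's quasi-likelihood test. In cKO keratinocytes the log2 fold change from unwounded to wounded was −0.78 (SE 0.18), with an unadjusted P of 4.96e-04 and adjusted p = 0.0513 in the same edgeR test, which did not pass 0.05. That adjusted p was 0.0022 with DESeq2, 0.0335 with edgeR's likelihood ratio test and 0.00753 without the filter on low counts, and 0.0413 or 0.0353 without WT wounded replicate 1 or 2; over all alternatives it ranged from 0.0022 to 0.215. The difference between the cKO and WT responses of *Efnb2* was −0.465 (SE 0.23), with an unadjusted P of 0.0652, which was 0.0421 with DESeq2 and 0.116 with the likelihood ratio test; without cKO wounded replicate 2 it was −0.51 (0.0480) and without WT unwounded replicate 1 −0.415 (0.178). Wounded cKO and wounded WT keratinocytes had nearly the same *Efnb2* level, at a log2 fold change of 0.02 (95% interval −0.29 to 0.34).

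With genotype in the fit, all 4 wounded against all 3 unwounded libraries gave a log2 fold change of −0.50 (SE 0.13) for *Efnb2*, lower in 4 of 4 wounded libraries, with an unadjusted P of 0.0015 and adjusted p = 0.220 in edgeR's test. DESeq2 gave adjusted p = 0.031 and edgeR without the filter adjusted p = 0.0184, in a range of 0.0184 to 0.991 over the alternatives. An exact permutation test on log2 CPM gave p = 0.0286, the smallest that the 35 divisions of 4 against 3 libraries allow. Unlike the fit, it took no account of genotype. Without the cKO unwounded library the log2 fold change of *Efnb2* was −0.31 with an unadjusted P of 0.0534 by edgeR. The cKO libraries left were then all wounded, so this is the WT contrast again and not a second result. The exact permutation p was 0.0667 without that library, again the smallest possible, from 15 divisions. The unwounded libraries left were all WT, so that test did not separate wounding from genotype. Thus the library with the highest level carried part of the pooled difference, and the WT contrast had the same direction.

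Markers of other epidermal compartments and of vessels moved with the same libraries. The summed level of 8 hair follicle markers (8 of 8 measured, *Krt15* the most abundant) was 5855 and 5187 CPM in WT unwounded, 4583 and 3665 in WT wounded, 6752 in cKO unwounded and 3691 and 4562 in cKO wounded, lower in all wounded libraries, as *Efnb2* was. The summed level of 16 endothelial markers (*Vwf* the most abundant, 1 gene at 0 in every library) was 8.72, 10.2, 49.6, 29.5, 3.85, 20.2 and 31.4 CPM in the same order, higher in all wounded libraries; *Pecam1* counts were 1, 23, 100, 31, 4, 59 and 15, and *Cdh5* counts 1, 13, 107, 44, 0, 12 and 53. The 8 melanocyte and Schwann cell markers (*Dct* the most abundant) summed to 3.94, 3.21, 10.5, 5.58, 2.37, 6.63 and 7.28 CPM, also higher in the wounded libraries. *Efnb2* is a gene of arterial endothelium as well as of keratinocytes. The wounded libraries had the lower *Efnb2* level and the higher endothelial sum. In the WT unwounded and cKO wounded pairs, the library with the higher endothelial sum also had the higher *Efnb2* level. The WT wounded pair had nearly equal *Efnb2* levels, at a ratio of 1.006, with endothelial sums of 49.6 and 29.5 CPM. The part of these cells in the *Efnb2* difference was not tested, and in bulk libraries fewer cells of a type and less RNA per cell cannot be told apart.

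*Efnb1*, on chrX:99136130-99148991 of the plus strand, encodes the other transmembrane ligand measured here, ephrin-B1. It was at 114 and 113 CPM in WT unwounded and 104 and 127 CPM in WT wounded. In cKO keratinocytes it was at 134 CPM unwounded and 91.5 and 93.4 CPM wounded. The WT groups overlapped, the cKO unwounded library was the highest and the cKO wounded libraries were the lowest of the 7. In WT the log2 fold change after wounding was 0.05 (SE 0.17, unadjusted P of 0.763), and in cKO it was −0.54 (SE 0.21) with an unadjusted P of 0.0202 and adjusted p = 0.370 by edgeR. Without cKO wounded replicate 2 the cKO value was −0.52 with an unadjusted P of 0.0554.

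The test of the difference between these 2 wound responses gave −0.60 (SE 0.27) for *Efnb1*, with an unadjusted P of 0.0450 and adjusted p = 0.715 by edgeR, so it failed the correction. It had an unadjusted P above 0.05 when WT unwounded replicate 1 (0.0824), WT unwounded replicate 2 (0.102), WT wounded replicate 2 (0.179, value −0.42), cKO wounded replicate 1 (0.0617) or cKO wounded replicate 2 (0.0794) was left out, and with the likelihood ratio test on all libraries (0.0606). With the replicate number as a term the unadjusted P was also above 0.05 (value −0.555). The contrast rests on the single cKO unwounded library, the one with *Xist* counts, and *Efnb1* lies on the X chromosome. The part of sex in the difference was not tested. Between wounded cKO and wounded WT libraries the log2 fold change of *Efnb1* was −0.30 (SE 0.17), lower in 2 of 2 cKO libraries without overlap, with an unadjusted P of 0.106; without WT wounded replicate 1 it was −0.44 with an unadjusted P of 0.0484, and without WT wounded replicate 2 it was −0.13 (0.550).

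The A-class ligands encode ephrin-A1 and ephrin-A3, which are anchored to the outer leaflet of the membrane. *Efna1* was at 132 and 108 CPM in WT unwounded, 109.5 and 106 in WT wounded, 121 in cKO unwounded, and 111 and 154 in cKO wounded. Its wounded and unwounded libraries overlapped, with a log2 fold change of −0.13 (SE 0.19) in WT, and both cKO wounded libraries lay above both WT wounded ones, at a log2 fold change of 0.315 (SE 0.19) with an unadjusted P of 0.112. Without cKO wounded replicate 1 that value was 0.51 with an unadjusted P of 0.0309, and without cKO wounded replicate 2 it was 0.11 (0.623).

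*Efna3* was at 22.7 and 16.5 CPM in WT unwounded, 13.7 and 12.4 in WT wounded, 24.4 in cKO unwounded, and 18.8 and 18.35 in cKO wounded. The WT wounded libraries were the lowest of the 7, below both WT unwounded and both cKO wounded libraries. In WT the log2 fold change was −0.56 (SE 0.29) with an unadjusted P of 0.0700, −0.78 (0.0360) without WT unwounded replicate 2 and −0.31 (0.403) without WT unwounded replicate 1. Over all wounded and unwounded libraries it was −0.50 (SE 0.22) with an unadjusted P of 0.0366 and adjusted p = 0.684 by edgeR; the exact permutation p was 0.171, and 0.333 without the cKO unwounded library. The unadjusted P was above 0.05 when WT unwounded replicate 1 (value −0.355, P of 0.163), WT wounded replicate 1 (0.0574), WT wounded replicate 2 (0.0900), cKO unwounded (0.0740) or cKO wounded replicate 2 (0.0613) was left out. Between wounded cKO and wounded WT, *Efna3* had a log2 fold change of 0.53 (SE 0.29) with an unadjusted P of 0.0859.

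Among the 6 receptors of the 10 genes, *Epha1* had the largest fitted difference after wounding in WT. It was at 80.6 and 95.2 CPM in WT unwounded, 62.4 and 70.3 in WT wounded, 103 in cKO unwounded, and 77.8 and 84.4 in cKO wounded. WT wounded libraries were below WT unwounded ones and below cKO wounded ones, and the cKO unwounded library was the highest. In WT the log2 fold change was −0.38 (SE 0.18) with an unadjusted P of 0.0528, and between wounded cKO and wounded WT it was 0.31 (SE 0.18) with an unadjusted P of 0.107. By edgeR the WT value had an unadjusted P of 0.0497 with a filter of 10 counts per library. With the replicate number as a term that P was 0.0465. All wounded against all unwounded libraries gave −0.37 (SE 0.14), an unadjusted P of 0.0165 and adjusted p = 0.549 by edgeR; the exact permutation p was 0.114, and 0.2 without the cKO unwounded library. Without WT unwounded replicate 2 that value was −0.31 (unadjusted P of 0.0686), and without WT wounded replicate 1 it was −0.32 (0.0511). Without the cKO unwounded library it was −0.375 (0.0527), which is the WT contrast again.

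*Efna1*, *Efna3* and *Epha1*, 3 of the 10, had both cKO wounded libraries above both WT wounded ones, as had 13.8% of all genes, and *Efnb1* had both below, as had 17.2%. In the same libraries the 7 measured of 8 suprabasal markers (*Krt1* the most abundant, none at 0) summed to 3548 and 5259 CPM in WT wounded and 6619 and 8260 CPM in cKO wounded, against 6126 and 6785 in WT unwounded and 9234 in cKO unwounded. The 6 wound keratinocyte markers (*Krt16* the most abundant) summed to 6596 and 9896 CPM in WT wounded and 7209 and 4958 in cKO wounded, which overlapped, against 4521, 5703 and 2665 in the 3 unwounded libraries. Whether the share of suprabasal cells had a part in the 3 ephrin and receptor differences was not tested.

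*Epha2*, the most abundant receptor and one that binds ephrin-A1, was at 546 and 399 CPM in WT unwounded, 583.5 and 487 in WT wounded, 431 in cKO unwounded, and 657 and 418 in cKO wounded. The 2 cKO wounded libraries differed by a factor of 1.57, and the wounded libraries overlapped with the WT unwounded ones; the cKO unwounded library lay below both WT wounded ones. The log2 fold change was 0.20 (SE 0.22) after wounding in WT, 0.32 (SE 0.27) after wounding in cKO and 0.04 (SE 0.22) between wounded cKO and wounded WT. Without cKO wounded replicate 2 the cKO value was 0.64 with an unadjusted P of 0.0224, and without cKO wounded replicate 1 it had the opposite sign, −0.086 (0.734). Over all libraries the value was 0.25 (unadjusted P of 0.176), 0.35 (0.0475) without cKO wounded replicate 2 and 0.11 (0.4955) without cKO wounded replicate 1.

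*Epha4*, a receptor that binds ligands of both classes, was at 247 and 231 CPM in WT unwounded, 303 and 213 in WT wounded, 206 in cKO unwounded, and 189.9 and 218 in cKO wounded. WT wounded replicate 1 was the highest of the 7, and the wounded genotypes overlapped at 213 and 218 CPM. In WT the log2 fold change after wounding was 0.13 (SE 0.18). Between wounded cKO and wounded WT the log2 fold change was −0.32 (SE 0.18) with an unadjusted P of 0.098; without WT wounded replicate 2 it was −0.53 with an unadjusted P of 0.0138, and without WT wounded replicate 1 it was −0.045 (0.827).

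The B-class receptors bind the transmembrane ephrins. *Ephb4*, the main partner of ephrin-B2, was at 102 and 107 CPM in WT unwounded, 104.5 and 107 in WT wounded, 85.2 in cKO unwounded, and 107 and 97.55 in cKO wounded. *Ephb2* was at 20.5 and 23.0 CPM, 18.1 and 27.95, 14.6, and 21.9 and 20.3 in the same order. Both had their lowest level in the cKO unwounded library, and the WT groups overlapped. *Ephb3* ranged from 38.3 to 51.4 CPM, with both ends in WT wounded. For these 3 receptors the log2 fold changes lay between −0.10 and 0.13 in WT after wounding and in wounded cKO against wounded WT, and the smallest unadjusted P among them was 0.563. The summed level of 8 fibroblast markers (*Fbln1* the most abundant) was also lowest in the cKO unwounded library, at 28.5 CPM against 78.7 to 108 elsewhere. *Fbln1* alone made up most of this sum, at 17.5 CPM there and 41.4 to 74.4 CPM elsewhere. In that library 3 of the 8 markers were at 0, against 0 to 2 elsewhere. The part of fibroblasts in the low *Ephb2* and *Ephb4* values there was not tested.

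**Figure D2:**
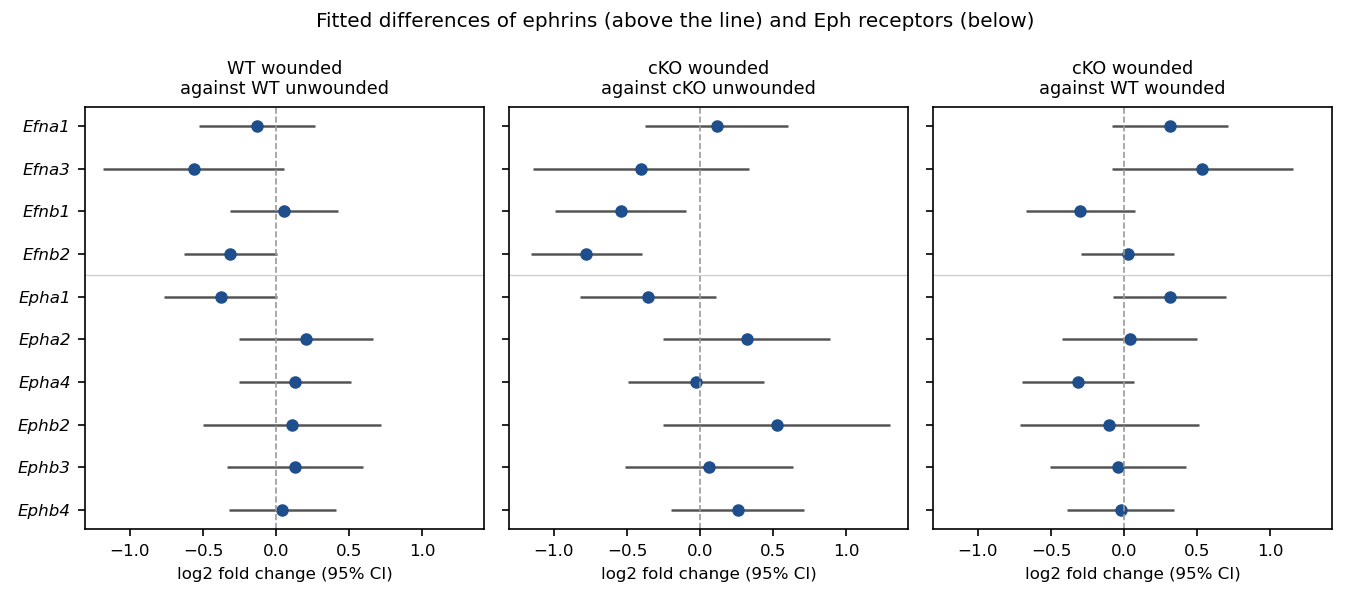
Fitted log2 fold change of each ephrin (above the grey line) and Eph receptor (below it) in 3 comparisons; points are edgeR estimates and bars their 95% confidence intervals. In WT wounded against WT unwounded, and in cKO wounded against WT wounded, every interval reaches 0; in cKO wounded against cKO unwounded, which has 1 unwounded library, those of *Efnb1* (−0.99 to −0.10) and *Efnb2* (−1.16 to −0.40) do not.

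Counted over the 10 genes, WT wounded against WT unwounded had 0 with an unadjusted P under 0.05 in edgeR's quasi-likelihood test, where 4.84% of the 14045 genes passed, and 0 with an adjusted p under 0.05, where 0.0285% passed. DESeq2 gave 1 of the 10 at the unadjusted limit (*Efnb2*) and 0 at the adjusted one, and the likelihood ratio test 0 at both. At the unadjusted limit 2 passed in edgeR with a filter of 10 counts per library (*Efnb2* and *Epha1*). The same 2 passed with the replicate number as a term, and 1 with only the 4 libraries compared (*Efnb2*). Both WT wounded libraries lay below both unwounded ones for 3 of the 10 (*Efnb2*, *Epha1* and *Efna3*), against 18.3% of all genes, and above for 0, against 15.2%. Leaving out WT unwounded replicate 2 gave 1 at the unadjusted limit (*Efna3*), as did leaving out cKO wounded replicate 1 or 2 (*Efnb2*, unadjusted P of 0.0411 and 0.0375). The median log2 fold change was −0.22 for the 4 ephrins, 0.12 for the 6 receptors and 0.00 for all genes tested.

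Wounded cKO against wounded WT had 0 of the 10 at the unadjusted limit in edgeR, against 4.04% of all genes, and 0 at the adjusted limit, against 0% of all genes. DESeq2 and the likelihood ratio test also gave 0 of the 10 at either limit. At the unadjusted limit, 1 passed without WT wounded replicate 1 (*Efnb1*), 1 without WT wounded replicate 2 (*Epha4*) and 1 without cKO wounded replicate 1 (*Efna1*). The ephrins had a median of 0.17, the receptors −0.03 and all genes −0.01.

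Wounded cKO against unwounded cKO had 2 of the 10 at the unadjusted limit, both lower (*Efnb1* and *Efnb2*), where 9.32% of all genes passed, and 0 at the adjusted limit in edgeR, where 0.947% passed; DESeq2 and the likelihood ratio test each gave 1 (*Efnb2*). Leaving out WT wounded replicate 1 or replicate 2 also gave 1. The ephrins had a median of −0.47, the receptors 0.16 and all genes 0.02.

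The difference between the 2 wound responses passed the unadjusted limit for 1 of the 10 (*Efnb1*), against 6.77% of all genes, and the adjusted limit for 0 in edgeR, against 0.185%; DESeq2 gave 2 and 0, and the likelihood ratio test 0 and 0. The unadjusted count was 0 without either WT unwounded replicate, WT wounded replicate 2 or cKO wounded replicate 1. Over all wounded and unwounded libraries, 3 of the 10 passed the unadjusted limit, all lower (*Efnb2*, *Epha1* and *Efna3*), against 6.61% of all genes, and 0 passed the adjusted limit in edgeR, against 0.0356%, with 1 by DESeq2 and 0 by the likelihood ratio test. Without the cKO unwounded library the fit becomes the WT contrast, and 0 of the 10 passed the unadjusted limit. Without WT wounded replicate 1 that count was 1. Wounded libraries lay wholly below unwounded ones for 1 of the 10 (*Efnb2*), against 3.70% of all genes, and wholly above for 0, against 2.74%. Each gene is 10% of the list, so these shares move in large steps. The comparisons share libraries, so they are not independent of each other.

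Of the 7 remaining family members tested, 1, *Ephb6*, had an unadjusted P under 0.05 in WT (4.84% of all genes), in cKO (9.32%) and over all libraries after wounding (6.61%). *Ephb6* was at 198 and 186 CPM in WT unwounded, 144 and 139 in WT wounded, 225 in cKO unwounded, and 150.2 and 178 in cKO wounded. It was lower in all 4 wounded libraries than in all 3 unwounded ones. The log2 fold change was −0.42 (SE 0.16) in WT, with an unadjusted P of 0.0206 and adjusted p = 0.895 by edgeR, −0.47 (SE 0.20) in cKO (unadjusted P of 0.0289), and −0.44 (SE 0.12) over all libraries (0.00296, adjusted p = 0.289 by edgeR). The exact permutation p over all libraries was 0.0571, and 0.0667 without the cKO unwounded library. The WT value had an unadjusted P of 0.118 without WT unwounded replicate 1, 0.0512 without WT wounded replicate 1 and 0.0679 without WT wounded replicate 2, and the cKO value one of 0.104 without cKO wounded replicate 1. *Ephb1* had counts of 34, 48, 163, 19, 8, 10 and 8, so 1 WT wounded library held most of them, and it was the 1 of these 7 with an unadjusted P under 0.05 between wounded cKO and wounded WT (4.04% of all genes). Its log2 fold change between wounded cKO and wounded WT was −3.13 (SE 0.99, unadjusted P of 0.00582), and −0.99 with an unadjusted P of 0.506 without WT wounded replicate 1.

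Variation over the 7 libraries differed between the 10 genes. The coefficient of variation was highest for *Efna3* (24.2%) and *Efnb2* (22.8%) and lowest for *Ephb4* (7.91%), and the median over 8452 genes with a mean of at least 10 CPM was 16.6%. For each of the 10, the gene outside the family with the most similar log2 CPM over the 7 libraries was named from those 8452. For *Efnb2* it was *Sbsn* (Pearson coefficient 0.980, Spearman coefficient 0.857, n = 7), which was at 324 and 337 CPM in WT unwounded, 249.8 and 252 in WT wounded, 407 in cKO unwounded and 257 and 280.5 in cKO wounded. *Efnb1* was nearest to *B2m* (0.981, 1), *Efna1* to *Ddrgk1* (0.991, 0.857) and *Efna3* to *Cep68* (0.954, 1), with the Pearson coefficient first. Among receptors, *Epha1* was nearest to *Abcd3* (0.975, 1), *Epha2* to *Pcnx* (0.989, 0.964), *Epha4* to *N4bp3* (0.973, 0.964), *Ephb2* to *Mapk6* (0.985, 0.929), *Ephb3* to *Trpm7* (0.980, 0.964) and *Ephb4* to *Fbln1* (0.990, 0.964). These are the highest of 8452 values over 7 libraries that share 4 groups, and are given as a description.

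The signalling genes downstream of Eph receptors and ephrins were read from 4 lists with 49 genes, of which 47 passed the filter. In WT wounded against WT unwounded, 2 of 47 had an unadjusted P under 0.05, both higher, against 4.84% of all genes, and 0 an adjusted p under 0.05 in edgeR. By list these were 1 of 10 guanine nucleotide exchange factors (*Arhgef15*), 0 of 20 kinases, phosphatases and adaptors, 1 of 10 partners of the ephrin-B tail (*Grip1*) and 0 of 7 proteases of the family. *Grip1*, a PDZ-domain scaffold that binds the ephrin-B tail, was at 12.3 and 15.7 CPM in WT unwounded, 20.2 and 25.3 in WT wounded, 9.85 in cKO unwounded and 20.8 and 21.4 in cKO wounded. It was higher in all 4 wounded libraries than in all 3 unwounded ones. The log2 fold change was 0.73 (SE 0.29, unadjusted P of 0.0232) in WT, 1.09 (SE 0.37, 0.0104) in cKO and 0.87 (SE 0.23, 0.0018, adjusted p = 0.229 by edgeR) over all libraries. The WT value of *Grip1* was 0.57 (0.136) without WT unwounded replicate 1 and 0.54 (0.150) without WT wounded replicate 2. Over all libraries the adjusted p of *Grip1* was 0.0490 in edgeR without the filter on low counts, and it ranged up to 0.924 over the alternatives. *Arhgef15* had 0 counts in the 3 unwounded libraries and 9, 29, 5 and 7 counts in the wounded ones, too few for a fold change to be given. It is also a gene of vessels, and the endothelial sums above were higher in the same libraries.

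Wounded cKO against wounded WT had 4 of 47 signalling genes with an unadjusted P under 0.05, all lower, against 4.04% of all genes, and 0 with an adjusted p under 0.05 in edgeR. *Nck2*, an adaptor between phosphorylated receptors and actin assembly, was at 35.2 and 27.9 CPM in WT wounded and 17.2 and 13.2 in cKO wounded, against 21.1 and 29.3 in WT unwounded and 16.4 in cKO unwounded. All 3 cKO libraries lay below all 4 WT libraries. Its log2 fold change was −1.03 (SE 0.29) with an unadjusted P of 0.00263 and adjusted p = 1 by edgeR, and the unadjusted P was at most 0.0410 whichever library was left out. *Src*, a tyrosine kinase, was at 69.2 and 74.65 CPM in WT wounded and 55.2 and 47.7 in cKO wounded, a log2 fold change of −0.46 (SE 0.19, unadjusted P of 0.0318). The kinase *Abl2*, at 298 and 225 CPM in WT wounded and 223 and 148 in cKO wounded, had −0.47 (SE 0.22, 0.0481) and *Pdzrn3*, a PDZ-domain ubiquitin ligase at 92.9 and 43.0 against 44.7 and 44.2 CPM, −0.59 (SE 0.27, 0.0438).

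For the last 3 of these the call depended on single libraries, and for 2 also on the method. The unadjusted P of *Abl2* was 0.0541 with the likelihood ratio test, 0.0565 with the 10-count filter and 0.0634 with only the 4 libraries compared, and that of *Pdzrn3* 0.0536 and 0.0709 with the last 2. *Src* had an unadjusted P of 0.131 without WT wounded replicate 2 and 0.185 without cKO wounded replicate 2. *Abl2* was at −0.26 (0.314) without WT wounded replicate 1, −0.17 (0.466) without cKO wounded replicate 2 and 0.0646 in unadjusted P without cKO unwounded. *Pdzrn3* was at 0.07 without WT wounded replicate 1, the opposite sign, and its unadjusted P was 0.0501 without WT unwounded replicate 2, 0.0600 without cKO unwounded, 0.109 without cKO wounded replicate 1 and 0.163 without cKO wounded replicate 2.

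Wounded against unwounded cKO had 3 of the 47 genes higher and 4 lower at the unadjusted limit, against 9.32% of all genes, and 0 at the adjusted limit in edgeR; they are named here after their values were seen. The higher ones were *Grip1*, the exchange factor *Vav3* (0.76, SE 0.24) and *Rgs3* (1.08, SE 0.45), which binds the ephrin-B tail. The lower ones were *Mllt4*, which encodes the junction protein afadin (−0.95, SE 0.25), *Pdzrn3* (−0.89, SE 0.32), the phosphatase *Inppl1* (−0.65, SE 0.30) and the protease *Mmp14* (−0.54, SE 0.23). Without cKO wounded replicate 2 the unadjusted P was above 0.05 for *Rgs3* (0.0954), *Pdzrn3* (0.0633), *Inppl1* (0.222, value −0.41) and *Mmp14* (0.152), and for *Inppl1* also without WT unwounded replicate 1 (0.0504) or 2 (0.0527), with DESeq2 (0.0590) and with the likelihood ratio test (0.0508). In this comparison *Pdzrn3* passed the adjusted limit in edgeR without the filter on low counts. *Mllt4* was at 744 and 568 CPM in WT unwounded, 762 and 457 in WT wounded, 1109 in cKO unwounded and 510.4 and 646 in cKO wounded, so the high value was that of the single cKO unwounded library. The adjusted p of its cKO wound response was 0.104 in edgeR's quasi-likelihood test and from 1.63e-04 to 0.491 over the alternatives. Between the 2 wound responses, *Vav3* (0.79), *Rgs3* (1.35) and *Mllt4* (−0.87) had an unadjusted P under 0.05, 3 of 47 against 6.77% of all genes, and each lost it without at least 1 library: *Vav3* without WT unwounded replicate 2 (0.129), *Rgs3* without WT unwounded replicate 2 (0.103), WT wounded replicate 1 (0.0955) or cKO wounded replicate 2 (0.0793), and *Mllt4* without WT unwounded replicate 2 (0.0830), WT wounded replicate 1 (0.139, value −0.46) or cKO wounded replicate 1 (0.0676).

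The remaining marker lists bear on which cells the 10 genes were read from. The 8 mural and smooth muscle markers (*Notch3* the most abundant) summed to 169.6 to 293 CPM, with 1 to 4 of the 8 at 0 in each library. Whether the *Notch3* RNA came from mural cells or from keratinocytes was not tested, so this sum is not a measure of mural cells. The 8 leukocyte markers (*Cd74* the most abundant, 3 genes at 0 in every library) summed to 4.58 to 32.3 CPM. The 5 erythroid markers (*Alas2* the most abundant, 4 genes at 0 in every library) summed to 0 to 0.910 CPM. These sums overlapped between wounded and unwounded libraries, but within WT 2 of 6 mural markers and 2 of 4 leukocyte markers that passed the filter had an unadjusted P under 0.05 after wounding, all higher, as had 6 of 13 endothelial ones. The share of all genes was 4.84%. In the same comparison 1 of 7 fibroblast markers and 1 of 4 melanocyte and Schwann cell markers passed, also higher, and 0 of 1 erythroid markers. In each of these lists 0 passed as lower. For scale, *Efna3*, the lowest of the 4 ephrins, was at 12.4 to 24.4 CPM, within the range of the leukocyte and endothelial sums. That sets 1 gene beside sums of 8 and 16 markers. *Efna3* was highest in cKO unwounded, where the endothelial sum was lowest (3.85 CPM). It was lowest in WT wounded replicate 2, where the leukocyte sum was highest (32.3 CPM). The part of these cells in the *Efna3* level was not tested.

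Open chromatin was listed as broad peaks for 1 sample per condition, so it is described without a test. The lists held 10769 peaks in WT unwounded, 36872 in WT wounded, 29364 in cKO unwounded and 22474 in cKO wounded, covering 4.43, 18.01, 13.48 and 10.04 Mb. Peaks in or within 5 kb of the ephrin and receptor genes numbered 7, 23, 21 and 11 in that order, at 5, 9, 9 and 8 of the 10 genes. Of all 13533 tested genes with a position, 50.7%, 84.6%, 81.0% and 68.7% had such a peak, so the 10 genes followed the length of the lists. With each list shortened to its 10769 strongest peaks, 5, 4, 3 and 5 of the 10 genes had a peak, and 7, 6, 5 and 7 peaks were near them. The share of all genes with a peak was not counted for the shortened lists. Only *Efna3* had no peak in any of the 4 lists.

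Merged over conditions, the peaks formed 27 regions near 9 genes. In 5 regions all 4 lists had a peak, in 8 regions 3 lists, in 4 regions 2 lists and in 10 regions 1 list. WT wounded had a peak in 16 of the 27 regions that the WT unwounded list did not hold, as in 61.4% of all 42950 merged regions. It had one in 12 that the cKO wounded list did not hold (38.7% of all), and 0 regions were in cKO wounded and not in WT wounded (2146 of all 42950). With lists of equal length the WT wounded list had no more peaks near the 10 genes than the WT unwounded list, as given above. Those peaks covered more bases in WT wounded, 5155 against 3209 in WT unwounded. Of the 10 regions with 1 list, 6 were in WT wounded and 4 in cKO unwounded, which had the longest lists. At least 3 lists had a peak in 13 of the 27 regions and in 18825 of all 42950. The share of regions with 1 list was not counted over all regions. A region missing from a list was not called there, which does not show that it was closed.

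The ligand genes differed in their peaks. *Efnb2* had a peak over its start in all 4 lists, at chr8:8660885-8662017, with a fold enrichment over local background of 4.73 in WT unwounded, 4.28 in WT wounded, 5.32 in cKO unwounded and 5.53 in cKO wounded. A second region in all 4 lists lay in an intron, 21.2 kb into the gene, at chr8:8639532-8640513, with fold enrichments of 3.37, 4.3, 4.24 and 4.2. The start of *Efnb2* was thus listed in both genotypes and both states. *Efnb1* had no peak in WT unwounded; its start, chrX:99135765-99136273, was listed in WT wounded (3.33) and cKO unwounded (3.22), and its intron at chrX:99140801-99141491 in WT wounded (3.85), cKO unwounded (3.69) and cKO wounded (4.69). *Efna1* had 1 intronic region, chr3:89277370-89278029, in every list other than WT unwounded.

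Among receptors, *Ephb3* had 2 regions in all 4 lists. Its start, chr16:21204395-21204999, had fold enrichments of 4.16 in WT unwounded, 6.64 in WT wounded, 5.51 in cKO unwounded and 5.55 in cKO wounded, and a region 22.0 kb from the start, past the end of the gene at chr16:21226400-21227201, had 4.27, 5.93, 4.5 and 5.52. Both were lowest in WT unwounded and highest in WT wounded. *Epha1* had its start listed in all 4 (3.77, 4.37, 3.62 and 4.2), *Ephb4* in 3 (3.85, 4.18 and 4.46, not cKO wounded) and *Epha4* in 3 (3.66 in WT wounded, 4.27 in cKO unwounded and 3.82 in cKO wounded). *Epha4* held the most regions, 7, of which 7 had a peak in WT wounded, 5 in cKO unwounded, 2 in cKO wounded and 1 in WT unwounded. *Epha2*, the most abundant receptor RNA, and *Ephb2* had no peak over their start in any list, and the single *Ephb2* region and all 5 *Epha2* regions were in introns or past the end.

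**Figure D3:**
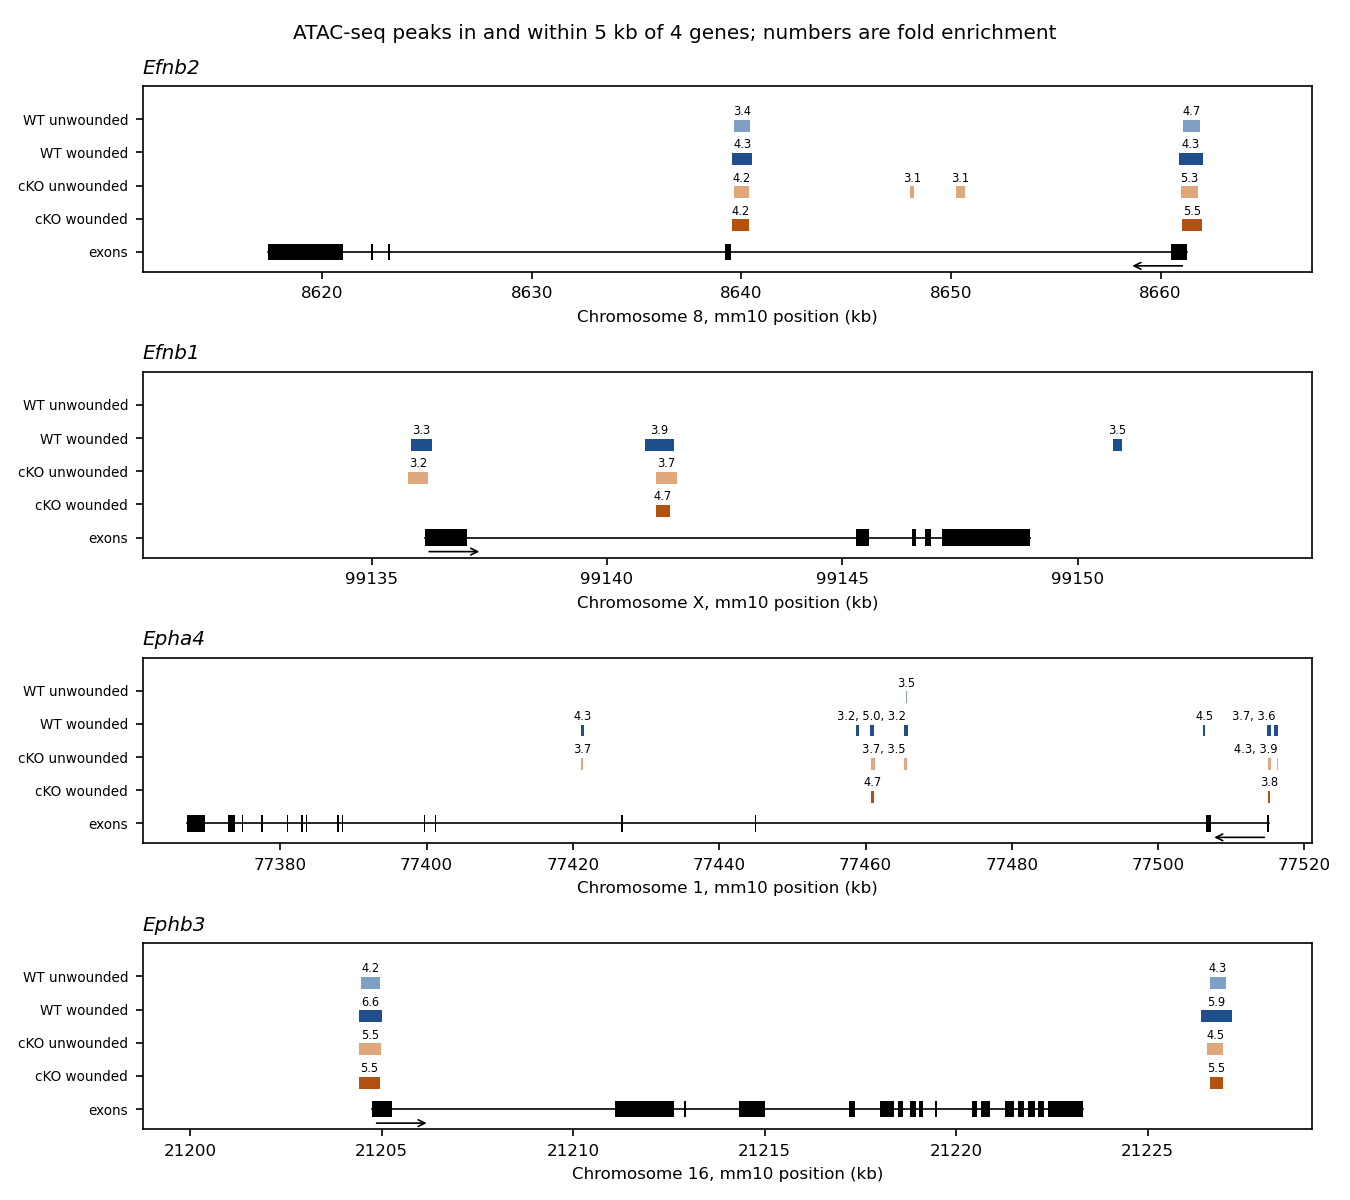
ATAC-seq peaks in and within 5 kb of *Efnb2*, *Efnb1*, *Epha4* and *Ephb3* in the 4 conditions, drawn to scale along mm10 (kb); boxes are peaks, numbers above them the fold enrichment in order along the chromosome, black boxes exons and arrows the direction of transcription. *Efnb2* and *Ephb3* have peaks over their start in all 4 conditions, and *Efnb1* has none in WT unwounded.

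The starts of *Efnb2* and *Ephb3* are printed because, of the 10 genes, they were the ephrin and the B-class receptor with a start peak in every list. Of the 12 other family members, *Ephb1* and *Ephb6* also had a start peak in every list, as did *Epha7* and, with 0 RNA counts, *Epha3* and *Epha5*. The sequences are RefSeq promoter windows on GRCm38.p6 (mm10), 250 bases before to 50 bases after the start, 5′ to 3′ on the strand of the gene, at chr8:8661193-8661492 (minus strand) and chr16:21204545-21204844 (plus strand). Capitals mark the 50 bases after the RefSeq start; the first *Ephb3* exon of GENCODE begins upstream of it, at chr16:21204755, so part of the lower-case stretch is transcribed in that annotation.
Efnb2 promoter: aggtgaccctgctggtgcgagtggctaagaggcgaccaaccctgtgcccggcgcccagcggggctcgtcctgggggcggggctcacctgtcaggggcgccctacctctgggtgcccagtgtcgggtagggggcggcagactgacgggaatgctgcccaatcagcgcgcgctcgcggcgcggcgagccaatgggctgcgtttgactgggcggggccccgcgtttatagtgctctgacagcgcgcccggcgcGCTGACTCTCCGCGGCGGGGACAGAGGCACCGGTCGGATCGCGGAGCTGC
Ephb3 promoter: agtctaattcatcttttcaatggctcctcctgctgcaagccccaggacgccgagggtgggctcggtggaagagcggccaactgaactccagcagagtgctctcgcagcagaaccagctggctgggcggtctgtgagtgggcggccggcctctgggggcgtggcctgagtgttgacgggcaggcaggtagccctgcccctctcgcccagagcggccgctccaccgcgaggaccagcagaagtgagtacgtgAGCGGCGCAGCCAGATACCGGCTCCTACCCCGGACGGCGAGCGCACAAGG

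RefSeq gave 12 promoter windows for the 10 genes, *Efna1* and *Efna3* having 2 each. The GRHL core AACCNGTT (AACNGGTT on the other strand) was in 0 of 12, and in 2.09% of all 32851 windows. The AP-1 core TGANTCA, the same on both strands, was in 0 of 12 and in 7.81% of all windows. The windows of the 10 genes were rich in G and C, with a median of 64.0% against 52.7% over all windows, and *Efnb2* had the highest value, 72.3%. A window without these letters says nothing of binding by the factor.

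In windows of 300 bases about the centre of each of the 27 peak regions near ephrins and receptors, the AP-1 core was in 9 (33.3%), against 27.6% of 42941 such windows of the 4 lists, and the GRHL core in 1 (3.70%), against 3.72%. Some regions are narrower than their window, and the GRHL core lay outside its region. Read over their whole length, 9 of the 27 regions held an AP-1 core, against 34.4% of all 42950 regions, and 0 of 27 a GRHL core, against 5.73%. An AP-1 core was in 0 of the 6 regions over a gene start, and the share over all start regions was not counted. It was in 6 of the 13 regions found in at least 3 lists, against 39.2% of all regions in at least 3 lists. The cores of those 6 regions, chosen for holding one, are printed with 27 bases on either side, on the strand of the gene. They are 9 of the 12 cores found. A peak lay over the core itself in all 4 lists for *Efnb2* core a, in the 3 other than WT unwounded for *Efna1* core a and both cores of the first *Epha4* region, in WT wounded and cKO wounded for *Efnb2* core b, in WT wounded and cKO unwounded for *Efna1* core b, the next *Epha4* region and *Ephb2*, and in WT wounded alone for *Efnb1*. Capitals mark the AP-1 core, and the letters a and b tell 2 cores of 1 region apart. On GRCm38.p6 the windows lie at chr3:89277889-89277949 and chr3:89277618-89277678 (*Efna1*, minus strand), chrX:99140978-99141038 (*Efnb1*, plus strand), chr8:8640031-8640091 and chr8:8639576-8639636 (*Efnb2*, minus strand), chr1:77461109-77461169, chr1:77460910-77460970 and chr1:77465422-77465482 (*Epha4*, minus strand) and chr4:136801886-136801946 (*Ephb2*, minus strand). A match of 7 letters is a description and not a site.
Efna1 region, core a: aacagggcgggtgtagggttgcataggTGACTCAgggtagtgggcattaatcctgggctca
Efna1 region, core b: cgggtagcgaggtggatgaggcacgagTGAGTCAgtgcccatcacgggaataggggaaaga
Efnb1 region: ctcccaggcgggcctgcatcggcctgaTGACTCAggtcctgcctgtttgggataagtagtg
Efnb2 region, core a: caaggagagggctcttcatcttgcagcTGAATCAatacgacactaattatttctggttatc
Efnb2 region, core b: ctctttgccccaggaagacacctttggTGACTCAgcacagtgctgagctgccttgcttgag
Epha4 region, core a: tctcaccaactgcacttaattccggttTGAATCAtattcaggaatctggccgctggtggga
Epha4 region, core b: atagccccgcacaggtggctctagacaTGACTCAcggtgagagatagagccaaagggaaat
Epha4 next region: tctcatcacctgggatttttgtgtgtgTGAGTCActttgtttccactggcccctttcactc
Ephb2 region: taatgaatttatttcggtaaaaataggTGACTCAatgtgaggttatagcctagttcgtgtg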

How the data were processed

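RNA-seq counts of 7 libraries and ATAC-seq peaks of 4 conditions, 1 list each, were used as deposited. The counts are whole numbers per gene symbol; the labels and methods of the authors name FastQC, kallisto and mm10, and which step made the counts is not stated. In these tables the reads left out as not unique were 3.461 to 4.745% and as ambiguous 1.337 to 1.452% of a library. The peaks are MACS2 broad peaks on mm10 made by the authors. As deposited, each peak has a fold enrichment over local background, a −log10 p and −log10 q, and a display score made from the q; the score was not used.

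Counts were scaled by TMM and fitted in 1 model of 7 libraries in 4 groups with edgeR 4.0.16 (limma 3.58.1, R 4.3.3), with filterByExpr (14045 genes) and the quasi-likelihood test; adjusted p is by Benjamini-Hochberg over all genes tested, with a limit of 0.05. The test of all wounded against all unwounded libraries had genotype as a term. Without the cKO unwounded library this fit gives the WT wound contrast, because the cKO libraries left are all wounded. The cKO unwounded group has 1 library, which is assumed to vary like the other groups. CPM are counts over the library total, and CPM per kilobase divide by the merged exon length of GENCODE vM21. The log2 CPM for the nearest genes had a prior count of 0.5, and the nearest genes had a mean of at least 10 CPM. The exact permutation test used log2 CPM without a prior count and took no account of genotype. The test was tested on simulated data before use. Peaks were assigned to genes in or within 5 kb, and peaks of the 4 lists that overlapped were merged into regions. Promoters are RefSeq windows on GRCm38.p6 of 250 bases before to 50 bases after a start. Sequences were read with samtools 1.23.1 and figures drawn with matplotlib 3.10.9; tables were handled in Python 3.11.15 with pandas 2.3.3, scipy 1.17.1 and numpy 2.4.6.

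The alternatives were RLE size factors, DESeq2 1.42.0, edgeR's likelihood ratio test, a filter of 10 counts per library or none, the replicate number as a term, only the 4 libraries compared, and leaving out each library; for peaks, equal numbers from each list, a minimum enrichment of 4, a q limit of 0.01, distances of 0 and 20 kb, and 50% of the peak inside the window. Named genes were the 10 genes, family members with at least 10 counts in a library, up to 3 genes per signalling list with the smallest unadjusted P under 0.05 in WT wounded against WT unwounded and cKO wounded against WT wounded, the most abundant gene of each marker list with *Pecam1* and *Cdh5*, *Grhl3*, and the nearest gene of each of the 10. Outside this rule, *Vav3*, *Rgs3*, *Mllt4*, *Inppl1* and *Mmp14* were named after their values in cKO wounded against unwounded were seen. The members, the 4 signalling lists and the 10 marker lists were chosen with earlier results of these data known. In addition, 1 further signalling list is not used here.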

Additional observations from a re-analysis of the deposited data

Results flagged for a closer look

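The response of *Efnb1* to wounding differed between cKO and WT by a log2 value of −0.60 at an unadjusted P of 0.0450, in the test of the difference itself. It failed the correction over all genes (adjusted p = 0.715, edgeR's quasi-likelihood test). *Efnb1* was at 134 CPM in the single cKO unwounded library and at 91.5 and 93.4 CPM in the cKO wounded ones, against 114 and 113 CPM in WT unwounded and 104 and 127 CPM in WT wounded. The unadjusted P was above 0.05 without WT unwounded replicate 1 (0.0824) or 2 (0.102), WT wounded replicate 2 (0.179, value −0.42), or cKO wounded replicate 1 (0.0617) or 2 (0.0794), and with the likelihood ratio test on all libraries (0.0606). With the replicate number as a term it was also above 0.05 (value −0.555). The gene is X-linked and the cKO unwounded library differs in sex markers from the others. The part of sex was not tested.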

How the results depend on the processing

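Of 991 pairs of a named gene and an alternative, 875 kept direction and side of the unadjusted limit, 59 lost the limit, 17 gained it and 40 had the opposite sign, 37 of these on leaving out a library. The cause was not tested.

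In WT wounded against unwounded, all genes with an unadjusted P under 0.05 numbered 680, and 1117 with the likelihood ratio test. In wounded cKO against wounded WT, all genes with an unadjusted P under 0.05 numbered 567, and 873 with the likelihood ratio test, 420 to 855 with 1 library left out. In WT wounded against unwounded, genes with an adjusted p under 0.05 (edgeR) numbered 4, and 24 with DESeq2, 49 with the likelihood ratio test, 96 with no filter, 0 with 10 counts in every library, 0 with only the 4 libraries compared, 0 to 29 with 1 library left out. In wounded cKO against wounded WT, genes with an adjusted p under 0.05 (edgeR) numbered 0, and 3 with DESeq2, 1 with the likelihood ratio test, 51 with no filter, 0 to 21 with 1 library left out. In cKO wounded against unwounded, genes with an adjusted p under 0.05 (edgeR) numbered 133, and 252 with DESeq2, 252 with the likelihood ratio test, 436 with no filter, 28 with 10 counts in every library, 33 to 244 with 1 library left out. In the difference between wound responses, genes with an adjusted p under 0.05 (edgeR) numbered 26, and 85 with DESeq2, 98 with the likelihood ratio test, 203 with no filter, 1 with 10 counts in every library, 11 to 88 with 1 library left out. In all wounded against unwounded, genes with an adjusted p under 0.05 (edgeR) numbered 5, and 126 with DESeq2, 117 with the likelihood ratio test, 305 with no filter, 2 with 10 counts in every library, 0 to 119 with 1 library left out. In WT wounded against unwounded, of the 10 ephrins and receptors, those with an unadjusted P under 0.05 numbered 0, and 1 with DESeq2, 2 with 10 counts in every library, 1 with only the 4 libraries compared, 0 to 1 with 1 library left out. In wounded cKO against wounded WT, of the 10 ephrins and receptors, those with an unadjusted P under 0.05 numbered 0, and 0 to 1 with 1 library left out. In the difference between wound responses, of the 10 ephrins and receptors, those with an unadjusted P under 0.05 numbered 1, and 2 with DESeq2, 0 with the likelihood ratio test, 0 to 1 with 1 library left out. In all wounded against unwounded, of the 10 ephrins and receptors, those with an unadjusted P under 0.05 numbered 3, and 0 to 3 with 1 library left out. In cKO wounded against unwounded, of the 10 ephrins and receptors, those with an adjusted p under 0.05 (edgeR) numbered 0, and 1 with DESeq2, 1 with the likelihood ratio test, 1 with no filter, 0 to 1 with 1 library left out. In all wounded against unwounded, of the 10 ephrins and receptors, those with an adjusted p under 0.05 (edgeR) numbered 0, and 1 with DESeq2, 1 with no filter.

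Values with the opposite sign are given as the range of log2 fold changes with 1 library left out. In WT wounded against unwounded: *Epha2* −0.015 to 0.46, *Epha4* −0.14 to 0.35, *Ephb2* −0.26 to 0.39, *Ephb3* −0.095 to 0.31, *Efna1* −0.28 to 0.035, *Efnb1* −0.12 to 0.195, *Ephb1* −1.001 to 1.96. In wounded cKO against wounded WT: *Epha2* −0.36 to 0.36, *Ephb2* −0.39 to 0.26, *Ephb3* −0.23 to 0.18, *Ephb4* −0.12 to 0.080, *Efnb2* −0.023 to 0.080, *Pdzrn3* −1.025 to 0.066. In cKO wounded against unwounded: *Epha2* −0.086 to 0.64, *Epha4* −0.090 to 0.038, *Ephb3* −0.005 to 0.13, *Efna1* −0.097 to 0.30, *Ephb1* −0.12 to 0.175. In the difference between wound responses: *Epha1* −0.088 to 0.13, *Epha2* −0.29 to 0.435, *Epha4* −0.37 to 0.12, *Ephb3* −0.25 to 0.16, *Efna3* −0.095 to 0.38, *Ephb6* −0.14 to 0.031, *Ephb1* −1.925 to 1.035. In all wounded against unwounded: *Epha4* −0.085 to 0.16, *Ephb3* −0.017 to 0.19, *Efna1* −0.13 to 0.073, *Efnb1* −0.33 to 0.058, *Ephb1* −0.51 to 1.16.

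The replicate numbers were not shown to pair samples: same-number deviations correlated at 0.123, 0.002 and −0.023 (n = 14045 genes). The cKO unwounded library is numbered 2 in its title and 1 in its deposited name; 2 was used, and the block values depend on it. The replicate block gave 213 genes at the adjusted limit for cKO wounded against unwounded, 78 genes at the adjusted limit for the difference between wound responses, 2 of the 10 at the unadjusted limit for WT wounded against unwounded, 0 of the 10 at the unadjusted limit for the difference between wound responses. Its log2 values of opposite sign were −0.002 for *Epha2* in wounded cKO against wounded WT, −0.45 for *Ephb1* in cKO wounded against unwounded, −0.185 for *Epha2* in the difference between wound responses. With the block the difference between the wound responses of *Efnb1* was −0.555 (unadjusted P of 0.0677).

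With a fold enrichment of at least 4, 2 of the 10 genes had a peak in WT unwounded (5 before), 3 peaks lay near them in WT unwounded (7 before), 11 peaks lay near them in WT wounded (23 before), 5 of the 10 genes had a peak in cKO unwounded (9 before), 7 peaks lay near them in cKO unwounded (21 before). With lists of equal length, 4 of the 10 genes had a peak in WT wounded (9 before), 6 peaks lay near them in WT wounded (23 before), 3 of the 10 genes had a peak in cKO unwounded (9 before), 5 peaks lay near them in cKO unwounded (21 before), 5 of the 10 genes had a peak in cKO wounded (8 before), 7 peaks lay near them in cKO wounded (11 before). Depth set the limit for a gene at 0, 3 counts, at 0.1785 to 0.222 CPM.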
